A study of Homo sapiens with 11 samples.

Results

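The genes described here are the mucins and the enzymes that build mucin-type O-glycans, measured by RNA-seq in liver tumours of PANC1 LM3 cells. Members were chosen by symbol alone: MUC, GALNT, C1GALT1, C1GALT1C1, GCNT, B3GNT, ST3GAL and ST6GALNAC genes followed by a number. The rule found 58 of the 23434 rows of the authors' deposited table, of which 14 were mucins and 44 were enzymes or the chaperone of one. An adjusted p was given for 53 members and not for the other 5 (MUC7, MUC13, GALNT8, GCNT3 and ST6GALNAC5), which all lay near 0.

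The established human cell line PANC1 comes from a pancreatic ductal carcinoma, and PANC1 LM3 is its liver-metastatic derivative of generation 3. The cells carried 1 of 2 short hairpins against NPTX1, shNPTX1_3 (3 libraries, labelled NPTX1 knock down) or shNPTX1_4 (4 libraries, labelled NPTX1 knock down), or the control hairpin shCTRL (4 libraries, labelled WT). For every library the description gives 500000 cells put into the spleen on day 1, with liver tumours taken on day 21. The labels call the libraries biological replicates without tying each to an animal, so the p-values measure only the spread between these libraries.

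Mucins are proteins with long stretches rich in serine and threonine, and each of these residues can carry an O-glycan. GALNT enzymes start the glycan by adding N-acetylgalactosamine (GalNAc) in the Golgi, C1GALT1 adds galactose to form core 1 with the help of its chaperone C1GALT1C1 (Cosmc), GCNT enzymes branch it, B3GNT enzymes extend it, and ST3GAL and ST6GALNAC enzymes cap it with sialic acid. Short, sialylated O-glycans and altered mucin production are well known in pancreatic carcinoma, where MUC1 and MUC16 (the carrier of the CA125 antigen) are followed as tumour markers.

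The acceptor stretches show what these enzymes work on. For the transmembrane mucins MUC16, with the most counts of any mucin, MUC1, the tumour marker, and MUC12, which fell in the knockdown tumours, the 40 codons with most serine and threonine codons are printed below, with those codons in capitals. The sequences are GENCODE release 29 transcripts on GRCh38, each within 1 coding exon: MUC16 codons 485 to 524 in exon 1 at chr19:8979567-8979686 (minus strand), MUC12 codons 3661 to 3700 in exon 5 at chr7:101001115-101001234 (plus strand) and MUC1 codons 989 to 1028 in exon 6 at chr1:155188328-155188447 (minus strand).
MUC16: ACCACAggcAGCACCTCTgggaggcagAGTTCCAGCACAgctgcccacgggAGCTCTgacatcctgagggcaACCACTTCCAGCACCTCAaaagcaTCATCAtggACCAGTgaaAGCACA
MUC12: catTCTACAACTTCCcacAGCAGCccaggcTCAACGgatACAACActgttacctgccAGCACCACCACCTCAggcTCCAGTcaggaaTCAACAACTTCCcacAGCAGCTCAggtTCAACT
MUC1: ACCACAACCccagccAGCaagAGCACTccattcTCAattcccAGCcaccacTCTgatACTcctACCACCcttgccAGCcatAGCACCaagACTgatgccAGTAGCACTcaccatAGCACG
Serine and threonine codons made up 23 of 40 in the MUC16 stretch, 26 of 40 in MUC12 and 21 of 40 in MUC1. Over the whole coding sequence their share was 36.0% in MUC16, 44.6% in MUC12 and 26.1% in MUC1, against 10.4% in C1GALT1C1 and 10.5% in C1GALT1, the core 1 chaperone and enzyme. Mucin coding sequences hold tandem repeats, and the sources used here do not say how reads with several matches were counted, so mucin counts carry that uncertainty.

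NPTX1, the targeted gene, had an authors' mean of 46.5 normalized counts with shNPTX1_3 and 38.4 with shNPTX1_4, against 102.9 in shCTRL. Its log2 fold change, the 7 knockdown libraries over the 4 control libraries, was -1.26 per the authors' deposited table (± 0.24 SE, DESeq2 adjusted p = 3.65e-06). Normalized counts are reads divided by a library size factor. Library depths were estimated indirectly from the size of 1 read in the low means, taking the same normalized total for each library of a group. The estimates were 10800000 to 24000000 reads on genes for shNPTX1_3, 16600000 to 26100000 for shNPTX1_4 and 13000000 to 41200000 for shCTRL. The table holds 1 mean per group, so means have no SD and 1 hairpin alone could not be tested. Of the epithelial markers KRT7, KRT8, KRT18, KRT19, EPCAM and CDH1, all were detected and 4 of 6 rose, with summed authors' means of 56791 normalized counts in shNPTX1_3, 29042 in shNPTX1_4 and 16162 in shCTRL. The hepatocyte marker ALB was near 0, with authors' means of 0.616 (shNPTX1_3), 0.284 (shNPTX1_4) and 0.784 (shCTRL) normalized counts, and the 8 hepatocyte markers summed to 199.5, 109 and 102 normalized counts in the same groups. Of the 6 tested hepatocyte markers 2 rose, APOA1 (log2 change 1.77, DESeq2 adjusted p = 0.0082) and TF (log2 change 1.04, DESeq2 adjusted p = 0.018), per the authors' deposited table. DESeq2 called 0 of 4 tested leukocyte and 0 of 4 endothelial markers (0 and 1 at an unadjusted p under 0.05), and 1 of 6 fibroblast and stellate cell markers rose (LUM). COL1A2 did not pass the adjusted test but was lower at an unadjusted p under 0.05, with authors' means of 17.8 (shNPTX1_3), 17.5 (shNPTX1_4) and 74.3 (shCTRL) normalized counts (DESeq2 adjusted p = 0.0559, per the authors' deposited table). All these markers are human gene symbols, and how reads of the mouse host were handled was not given. The share of host cells in the tumours therefore cannot be read from them.

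Of the 53 members with an adjusted p, 13 rose and 5 fell with NPTX1 knockdown at a DESeq2 adjusted p under 0.05 per the authors' deposited table. That is 24.5% higher and 9.43% lower, beside 15.8% higher and 11.5% lower among all 18426 named genes with an adjusted p. In either direction it is 34.0% of members, beside 27.3% of all genes. The median log2 fold change per the authors' deposited table was 0.02 over the 53 members and -0.01 over all named genes tested. Changes of at least 2-fold among the called genes were found for 6 members (11.3%), beside 3.76% of all genes: GALNT5, MUC5B, GALNT18 and B3GNT7 rose, and GALNT14 and ST3GAL5 fell. B3GNT7 and ST3GAL5 lay close to the 2-fold limit, at log2 changes of 1.05 and -1.001. With the groups scaled to the same total, B3GNT7 was at 0.984 and so under it. The share over all genes was not recounted under that scaling. Among the enzymes and the chaperone, 12 of 41 tested rose (29.3%) and 4 fell (9.76%). Among the mucins 1 of 12 tested rose and 1 fell (8.33% each). The median standard error was 0.35 for the mucins and 0.16 for the enzymes and the chaperone, so changes were harder to call among the mucins. The difference between the 2 sets was not tested. The keratins named above rose in the same comparison, and their part in the members' calls was not tested. Because the tumours were measured in bulk, fewer cells of a type and less RNA per cell cannot be told apart in any of these values.

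**Figure D1:**
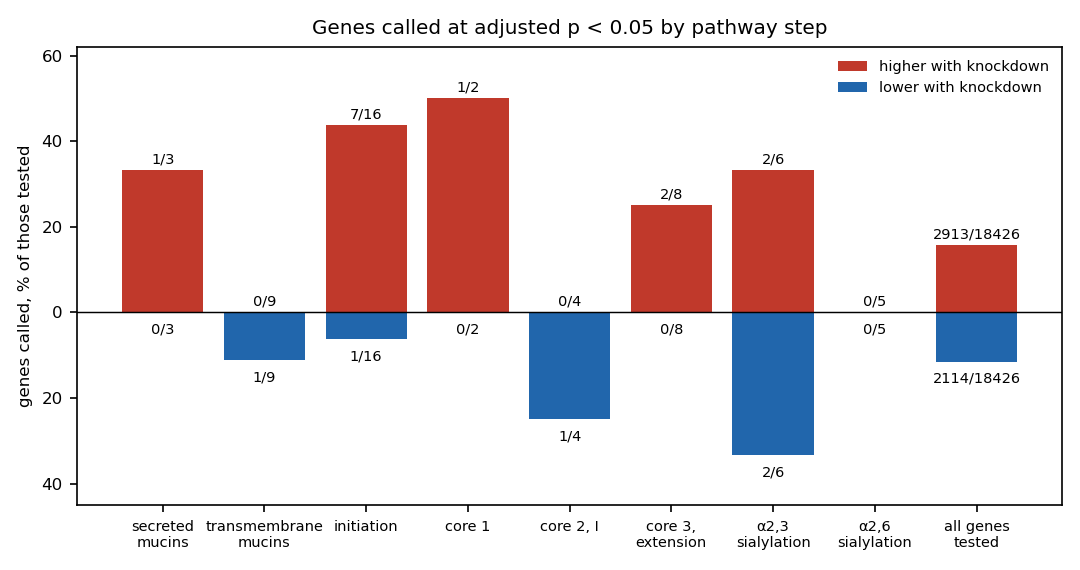
Share of tested genes called higher (upward bars) or lower (downward bars) with NPTX1 knockdown at an adjusted p under 0.05, by pathway step, with the count over the number tested on each bar. Initiation had the most members called higher (7 of 16), and α2,3 sialylation was split between 2 higher and 2 lower, beside 15.8% higher and 11.5% lower among all genes tested.

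Secreted mucins came to 4 members. The rule also fits the secreted mucins MUC5AC, MUC8 and MUC19, but none of them had a usable row. MUC5B, a gel-forming mucin of airway and biliary mucus, rose most among the mucins with an adjusted p. Its authors' mean was 160.0 normalized counts with shNPTX1_3 and 67.5 with shNPTX1_4, against 16.4 in shCTRL. Both hairpin groups were above control, the first by more. For MUC5B the authors' deposited table gives 2.69 ± 0.37 SE on the log2 scale (DESeq2 adjusted p = 1.65e-11), or 6.46-fold. MUC6, the gel-forming mucin of gastric and pancreatic duct glands, had authors' means of 63.3 normalized counts with shNPTX1_3, 28.8 with shNPTX1_4 and 58.4 in shCTRL. It did not pass the test (log2 change -0.45 ± 0.37 SE, DESeq2 adjusted p = 0.38, per the authors' deposited table), and its hairpin groups lay on opposite sides of control. MUC2, the intestinal gel-forming mucin, was near the detection limit, with authors' means of 2.27 (shNPTX1_3), 2.73 (shNPTX1_4) and 3.95 (shCTRL) normalized counts (DESeq2 adjusted p = 0.565, per the authors' deposited table). MUC7, the small salivary mucin, was listed at 0 with both hairpins and at 0.443 normalized counts in shCTRL. MUC5B overlaps the antisense gene MUC5B-AS1 in GENCODE. The sources used here do not say whether counting used strand, and without it reads of the pair cannot be told apart. Epithelial keratins and several secretory genes also rose in the pooled comparison (values above and further on), and their part in this result was not tested. Between the hairpins they did not all follow MUC5B: AGR2 and CAPN8 were higher with shNPTX1_4 than with shNPTX1_3. Of the goblet and gastric mucous cell markers, 2 of 6 tested rose (TFF3 and SPDEF), the list summed to 165 normalized counts in shNPTX1_3, 86.1 in shNPTX1_4 and 76.4 in shCTRL, and CLCA1 was listed at 0 with both hairpins and at 0.675 in shCTRL. Of the cholangiocyte markers, 3 of 5 tested rose (KRT7, KRT19 and AQP1) and SOX9 fell, and the list summed to 11998 normalized counts in shNPTX1_3, 8318 in shNPTX1_4 and 5698 in shCTRL. AQP1 rose 4.84-fold (DESeq2 adjusted p = 1.82e-27) and SOX9 had a log2 change of -0.35 (DESeq2 adjusted p = 0.0039), per the authors' deposited table, while CFTR was at or below 1.43 normalized counts in each group. The part of either list in the MUC5B result was not tested.

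Transmembrane mucins, which line the cell surface, mostly did not pass the test: of 9 tested by DESeq2, 0 rose (0 at an unadjusted p under 0.05, beside 15.8% of all genes called higher) and 1 fell (11.1%, beside 11.5% of all genes, so the share lower is near that of all genes). MUC12 fell, with authors' means of 50.7 normalized counts with shNPTX1_3 and 38.8 with shNPTX1_4, against 66.5 in shCTRL. The authors' deposited table gives -0.62 ± 0.20 SE on the log2 scale (DESeq2 adjusted p = 0.0104). GENCODE places an antisense gene over MUC12. MUC16 had by far the most counts of any mucin, with authors' means of 3643 normalized counts with shNPTX1_3, 1731 with shNPTX1_4 and 2523 in shCTRL. Its hairpin groups lay on opposite sides of control, and the log2 change of the pooled comparison was 0.02 ± 0.33 SE per the authors' deposited table, with a DESeq2 adjusted p of 0.977 (the sign is negative under both other scalings tried). MUC1 had authors' means of 209 (shNPTX1_3), 155 (shNPTX1_4) and 223 (shCTRL) normalized counts, with a log2 fold change of -0.35 per the authors' deposited table (± 0.19 SE, DESeq2 adjusted p = 0.151). MUC20, which is known to bind the MET receptor, had authors' means of 140.2 (shNPTX1_3), 161 (shNPTX1_4) and 166 (shCTRL) normalized counts (log2 change -0.14, DESeq2 adjusted p = 0.549, per the authors' deposited table). The other 5 tested transmembrane mucins (MUC21, MUC22, MUC4, MUC15 and MUC17) had authors' means of at most 32.5 normalized counts in any group, and MUC13 had at most 0.923.

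Per kilobase of exonic gene model (GENCODE 29, a different annotation from the one counted), MUC16, MUC1 and MUC20 stood above all other mucins. MUC16 had 83.2 normalized counts per kilobase with shNPTX1_3, 39.5 with shNPTX1_4 and 57.6 in shCTRL. MUC1 had 48.8, 36.3 and 52.2 per kilobase in the same groups, and MUC20 had 42.2, 48.5 and 50.0. Their order differed between the groups, and without values of single libraries neighbours in it cannot be separated. MUC5B had 8.93 and 3.77 normalized counts per kilobase with shNPTX1_3 and shNPTX1_4, against 0.917 in shCTRL, so it stayed below MUC16, MUC1 and MUC20 in each group.

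**Figure D2:**
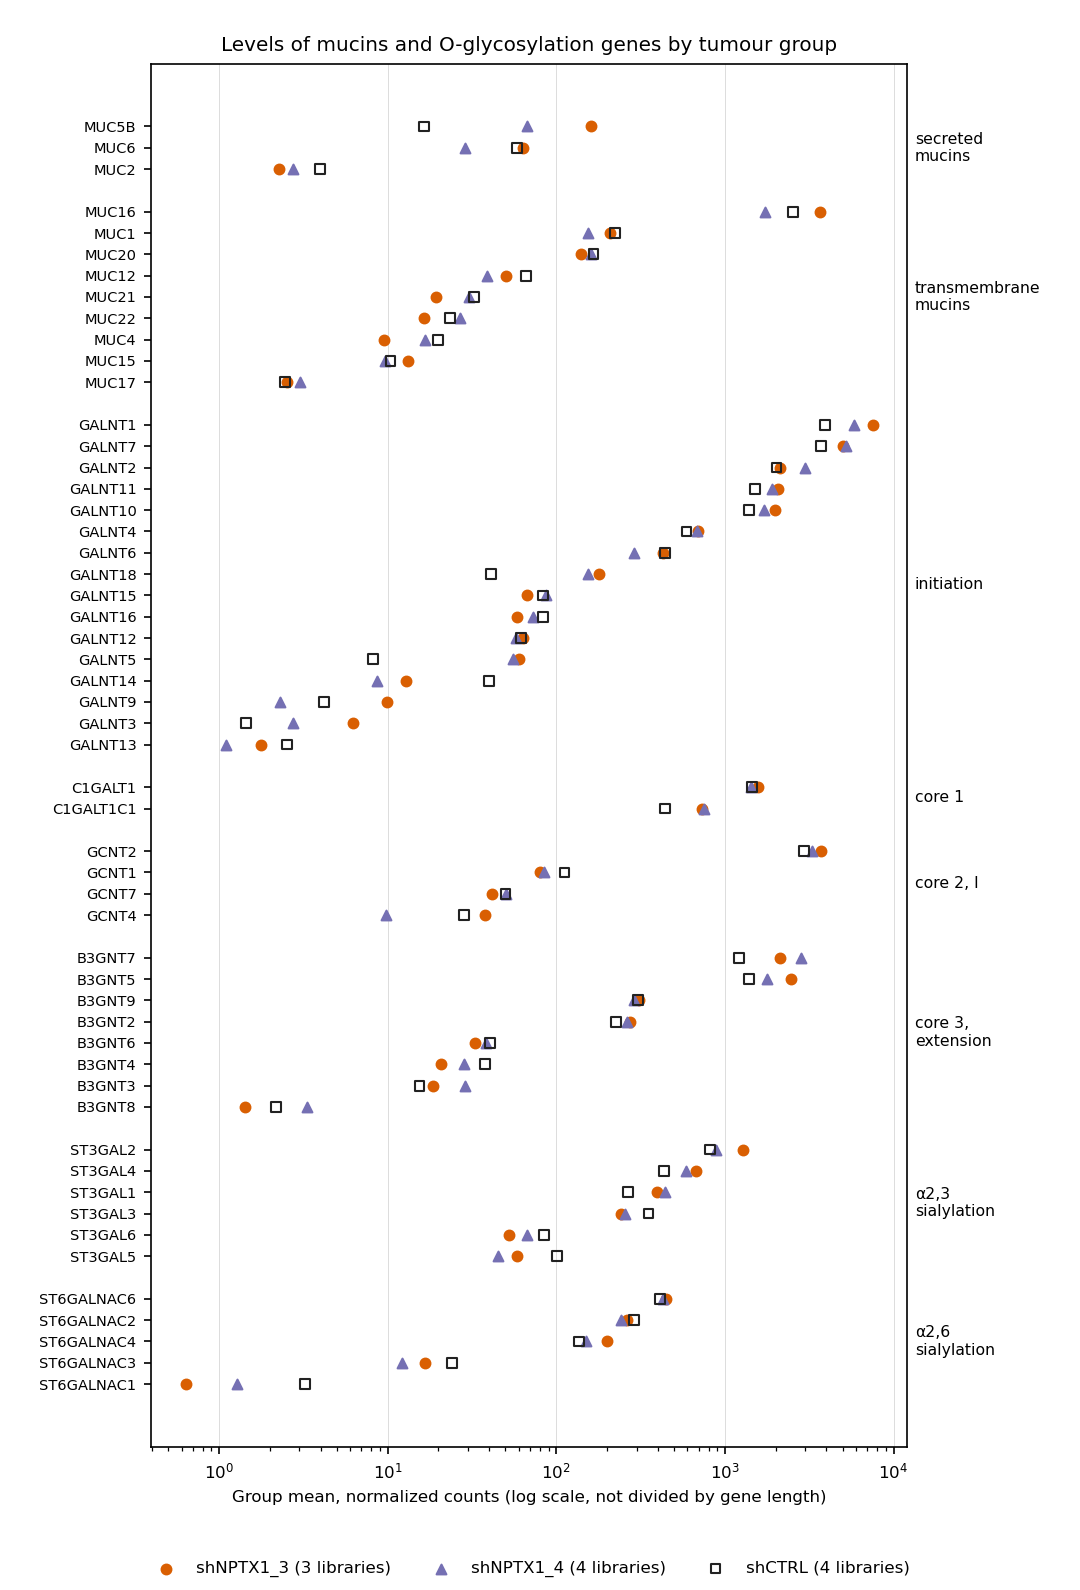
Authors' group means of the 53 members with an adjusted p, in normalized counts on a log axis and not divided by gene length, by pathway step. Filled circles are shNPTX1_3, filled triangles shNPTX1_4 and open squares shCTRL, and GALNT5, GALNT18 and MUC5B show both hairpins far to the right of control while GALNT14 shows both to the left.

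The initiating GALNT enzymes gave the most calls of any step by count: of 16 tested, 7 rose (43.8%, beside 15.8% of all genes) and 1 fell, with a median log2 fold change of 0.38 per the authors' deposited table. GALNT1 and GALNT2 are the broadly expressed enzymes that act on unmodified peptides. GALNT1 had authors' means of 7539 normalized counts with shNPTX1_3 and 5834 with shNPTX1_4, against 3933 in shCTRL. It rose 1.67-fold per the authors' deposited table (log2 change 0.74 ± 0.13 SE, DESeq2 adjusted p = 9.88e-07). GALNT2 had authors' means of 2127 normalized counts with shNPTX1_3, 2992 with shNPTX1_4 and 2020.3 in shCTRL, with log2 ratios to control of 0.07 and 0.57 for the hairpins. Its call (log2 change 0.38, DESeq2 adjusted p = 0.0317, per the authors' deposited table) was lost with the groups scaled to the same total (adjusted p = 0.083).

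GALNT7 and GALNT10 are follow-on enzymes that prefer peptides already carrying GalNAc. GALNT7 had 5045 and 5228 normalized counts (authors' means) with shNPTX1_3 and shNPTX1_4, against 3715 in shCTRL, a log2 change of 0.47 ± 0.07 SE per the authors' deposited table (DESeq2 adjusted p = 2.73e-10). GALNT10 had 1988 and 1705 normalized counts with the hairpins, against 1396 in shCTRL, as authors' means. It rose by 0.39 on the log2 scale per the authors' deposited table (± 0.08 SE, DESeq2 adjusted p = 3.02e-05). GALNT11, which is known to glycosylate receptors of the LDL receptor family, rose by 0.39 as well (standard error 0.08, DESeq2 adjusted p = 8.72e-06 per the authors' deposited table), at authors' means of 2067 (shNPTX1_3), 1908 (shNPTX1_4) and 1507 (shCTRL) normalized counts. GALNT4, another follow-on enzyme, did not pass the test (log2 change 0.21, DESeq2 adjusted p = 0.0889, per the authors' deposited table), and it overlaps the readthrough gene POC1B-GALNT4, so its counts are uncertain.

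The largest called changes of the step were in enzymes that were low in control tumours. GALNT5 had authors' means of 60.0 normalized counts with shNPTX1_3 and 55.5 with shNPTX1_4, against 8.22 in shCTRL. Both hairpin means were close to each other and far above control, 7.28-fold per the authors' deposited table (log2 change 2.86 ± 0.29 SE, DESeq2 adjusted p = 2.4e-20). GALNT18 had authors' means of 179 normalized counts with shNPTX1_3 and 154 with shNPTX1_4, against 41.1 in shCTRL. It rose 3.94-fold per the authors' deposited table (log2 change 1.98 ± 0.16 SE, DESeq2 adjusted p = 1.12e-30), the smallest p of all members. The gene CSNK2A3 overlaps GALNT18 in GENCODE. GALNT14, an enzyme linked to glycosylation of TRAIL death receptors, fell. Its authors' means were 12.9 normalized counts with shNPTX1_3 and 8.62 with shNPTX1_4, against 40.02 in shCTRL, and the log2 fold change was -2.02 per the authors' deposited table (± 0.30 SE, DESeq2 adjusted p = 1.13e-09). All 3 remained minor next to the abundant enzymes. Per kilobase, GALNT1 had 1653, 1279 and 862 normalized counts in shNPTX1_3, shNPTX1_4 and shCTRL, while GALNT18 had 71.3, 61.4 and 16.4 and GALNT5 had 9.72, 8.99 and 1.33. The 8 tested GALNT genes that were not called had log2 fold changes between -0.86 and 1.66 per the authors' deposited table, the extremes being GALNT13 and GALNT3, whose authors' means were at most 6.21 normalized counts in any group.

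**Figure D3:**
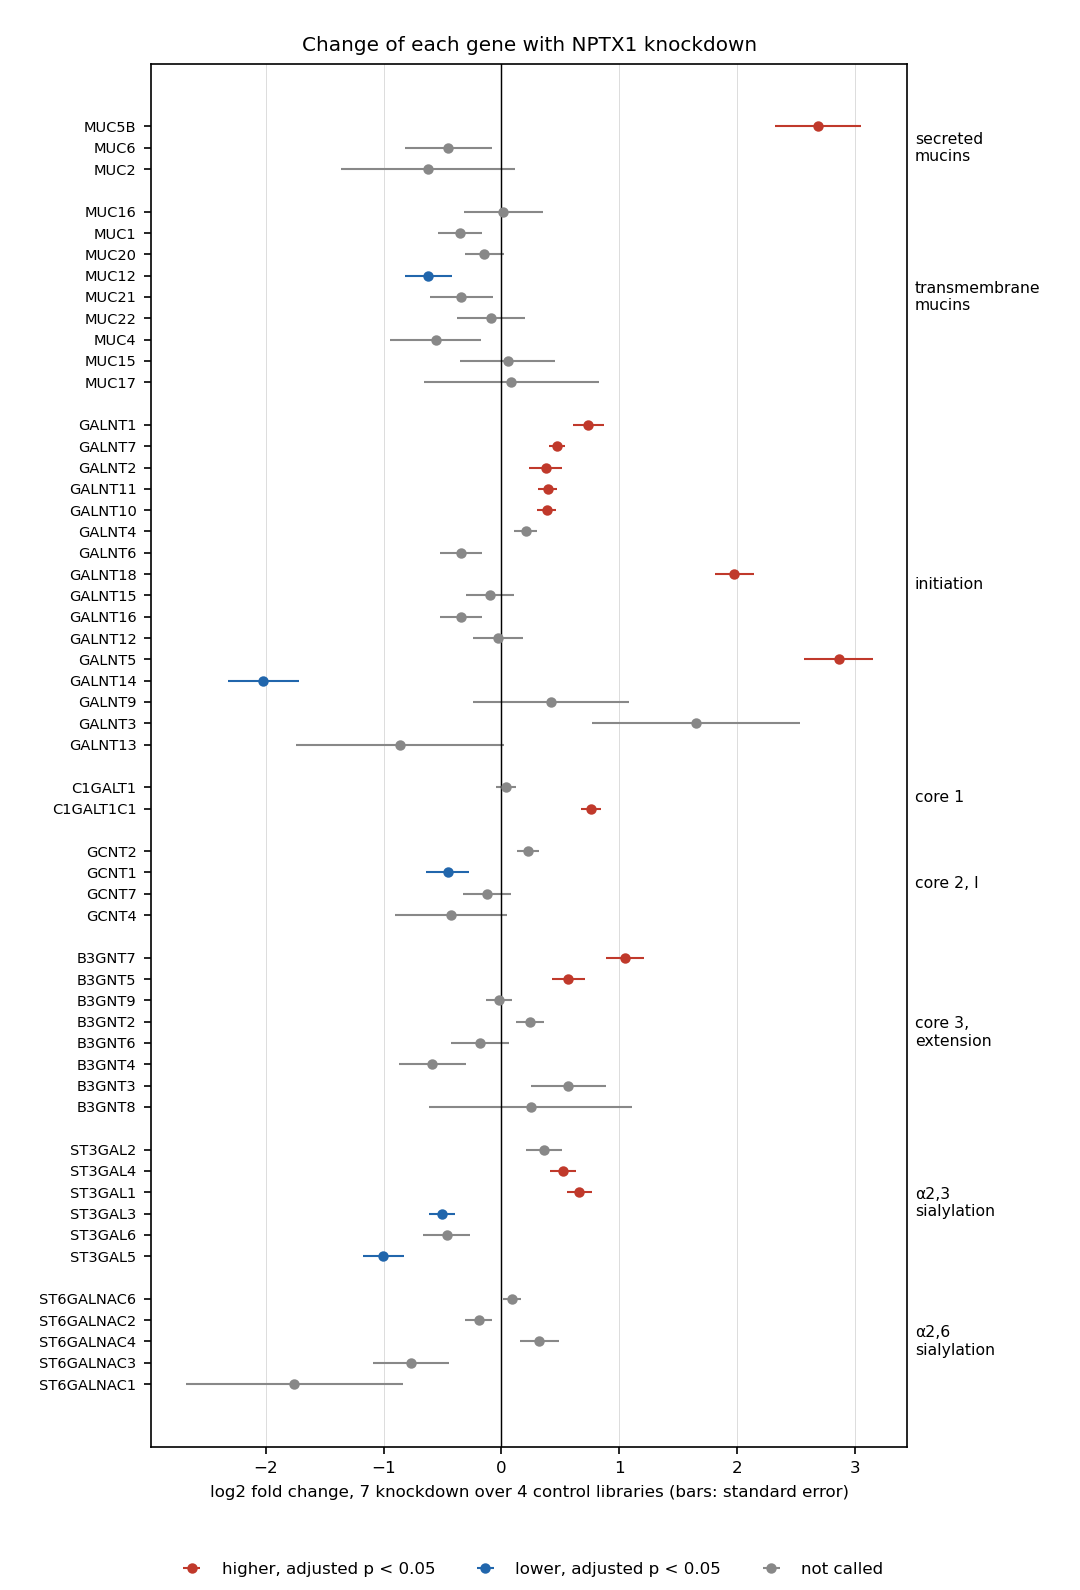
Log2 fold change of the 53 members with an adjusted p, 7 knockdown over 4 control libraries, with the standard error as bars, by pathway step and from the highest to the lowest mean within a step. Red points are called higher, blue points lower and grey points not called; GALNT5, MUC5B and GALNT18 lie near 2 or beyond, GALNT14 lies at -2.02, and the widest bars belong to members with few counts.

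At the core 1 step the chaperone rose and the enzyme did not pass the test. C1GALT1C1, the chaperone without which C1GALT1 does not fold into an active enzyme, had authors' means of 734 normalized counts with shNPTX1_3 and 753 with shNPTX1_4, against 441 in shCTRL. Both hairpins were close to each other and above control. It rose 1.70-fold per the authors' deposited table (log2 change 0.76 ± 0.09 SE, DESeq2 adjusted p = 2.9e-16). C1GALT1 itself had authors' means of 1582 (shNPTX1_3), 1427 (shNPTX1_4) and 1455 (shCTRL) normalized counts. Its log2 change was 0.04 ± 0.09 SE per the authors' deposited table, with a DESeq2 adjusted p of 0.771, and the sign turned negative with the groups scaled to the same total. Per kilobase, C1GALT1C1 had 411, 422 and 247 normalized counts in shNPTX1_3, shNPTX1_4 and shCTRL, and C1GALT1 had 250.03, 226 and 230.0. The difference between the 2 changes was not tested.

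Because the chaperone was called and the enzyme it folds was not, the 250 bases before each gene's start are shown for both, from RefSeq on GRCh38.p14: C1GALT1C1 at chrX:120630055-120630304 (minus strand) and C1GALT1 at chr7:7182294-7182543 (plus strand). Capitals mark the GC box GGGCGG and the CCAAT box, searched on both strands.
C1GALT1C1: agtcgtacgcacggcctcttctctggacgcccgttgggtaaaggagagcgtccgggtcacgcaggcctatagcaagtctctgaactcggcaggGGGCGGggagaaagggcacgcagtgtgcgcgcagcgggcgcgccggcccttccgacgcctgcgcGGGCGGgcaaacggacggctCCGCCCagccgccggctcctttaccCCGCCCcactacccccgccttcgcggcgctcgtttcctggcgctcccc
C1GALT1: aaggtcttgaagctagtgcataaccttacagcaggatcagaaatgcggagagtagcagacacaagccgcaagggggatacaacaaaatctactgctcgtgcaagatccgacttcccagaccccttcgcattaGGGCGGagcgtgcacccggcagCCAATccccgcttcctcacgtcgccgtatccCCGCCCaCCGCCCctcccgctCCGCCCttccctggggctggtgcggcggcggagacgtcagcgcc
Each window held 4 GC boxes, C1GALT1 also held 1 CCAAT box, and neither held a TATA box (TATAAA). GC boxes were present in 55.9% of the 68 promoter windows of the 40 members matched by symbol, and in 42.6% of all 35116 windows of the same length. The CCAAT box was present in 29.4% of the members' windows and in 32.0% of all windows, and the TATA box in 8.82% and 10.7%. The members with no match included MUC5B, GALNT5 and GALNT18. Any link between these boxes and the calls was not tested.

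Among the branching enzymes, DESeq2 called 0 of 4 tested higher (beside 15.8% of all genes) and 1 lower (25.0%, beside 11.5%). GCNT2 alone was higher at an unadjusted p under 0.05. GCNT1, the widespread core 2 enzyme, had authors' means of 79.9 normalized counts with shNPTX1_3 and 84.1 with shNPTX1_4, against 112 in shCTRL. The authors' deposited table gives -0.46 ± 0.18 SE on the log2 scale (DESeq2 adjusted p = 0.0427). That call was at the edge: adjusted over every row with a p, it was 0.0505. GCNT2, which makes I branches on poly-N-acetyllactosamine, had the most counts of the step, with authors' means of 3707 (shNPTX1_3), 3266 (shNPTX1_4) and 2960.2 (shCTRL) normalized counts (log2 change 0.22 ± 0.09 SE, DESeq2 adjusted p = 0.0568, per the authors' deposited table). GCNT7 did not pass the test either (log2 change -0.12, DESeq2 adjusted p = 0.702, per the authors' deposited table). GCNT4, singled out after its values were seen, had authors' means of 37.8 normalized counts with shNPTX1_3, 9.77 with shNPTX1_4 and 28.4 in shCTRL (DESeq2 adjusted p = 0.536, per the authors' deposited table). GCNT3, the core 2 and core 4 enzyme of mucin-secreting tissues, was at or below 0.894 normalized counts in each group.

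Of the 8 B3GNT genes, DESeq2 called 2 higher (25.0%, beside 15.8% of all genes) and 0 lower (beside 11.5%). At an unadjusted p under 0.05, 1 was lower, B3GNT4. B3GNT7, best known for extending keratan sulfate chains, had authors' means of 2121 normalized counts with shNPTX1_3 and 2812 with shNPTX1_4, against 1216 in shCTRL. It rose 2.07-fold per the authors' deposited table (log2 change 1.05 ± 0.16 SE, DESeq2 adjusted p = 2.06e-09). B3GNT5, which starts lacto-series glycolipids, had authors' means of 2458 normalized counts with shNPTX1_3, 1774 with shNPTX1_4 and 1392 in shCTRL, and rose by 0.57 on the log2 scale per the authors' deposited table (± 0.14 SE, DESeq2 adjusted p = 6.23e-04). These 2 had the highest levels of the family, also per kilobase, and both are known chiefly for carriers other than mucin O-glycans. B3GNT2, the main poly-N-acetyllactosamine synthase, had authors' means of 275 (shNPTX1_3), 261 (shNPTX1_4) and 225 (shCTRL) normalized counts (log2 change 0.24, DESeq2 adjusted p = 0.121, per the authors' deposited table). B3GNT6, the core 3 enzyme of normal gut epithelium, had 33.2, 38.4 and 40.6 normalized counts as authors' means (DESeq2 adjusted p = 0.62, per the authors' deposited table). B3GNT3, which extends core 1, had 18.5, 28.6 and 15.5 (DESeq2 adjusted p = 0.177), and B3GNT9 had 308, 290.5 and 306 (DESeq2 adjusted p = 0.912), both with means and p as per the authors' deposited table.

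The α2,3 sialyltransferases divided into 2 that rose, 2 that fell and 2 that did not pass the test. That is 33.3% higher and 33.3% lower, beside 15.8% and 11.5% of all genes. With 6 genes, nothing is read from these shares. ST3GAL1, which caps the galactose of core 1, had authors' means of 398 normalized counts with shNPTX1_3 and 439 with shNPTX1_4, against 266 in shCTRL. It rose by 0.66 on the log2 scale per the authors' deposited table (± 0.11 SE, DESeq2 adjusted p = 2.5e-08). ST3GAL4, which acts on lactosamine chains including those that become sialyl Lewis antigens, had authors' means of 677 (shNPTX1_3), 588 (shNPTX1_4) and 434 (shCTRL) normalized counts, and rose by 0.52 per the authors' deposited table (± 0.11 SE, DESeq2 adjusted p = 3e-05). ST3GAL5, the GM3 synthase that sialylates the glycolipid lactosylceramide, fell. Its authors' means were 58.7 normalized counts with shNPTX1_3 and 44.9 with shNPTX1_4, against 100.8 in shCTRL (log2 change -1.001 ± 0.17 SE, DESeq2 adjusted p = 3.33e-07, per the authors' deposited table). ST3GAL3, which prefers galactose on N-glycans and type 1 chains, fell as well, with 242 and 257 normalized counts (authors' means) with shNPTX1_3 and shNPTX1_4, against 353 in shCTRL (log2 change -0.50 ± 0.11 SE, DESeq2 adjusted p = 4.01e-05, per the authors' deposited table). ST3GAL2, which shares the core 1 acceptor with ST3GAL1, had authors' means of 1281 (shNPTX1_3), 880 (shNPTX1_4) and 817 (shCTRL) normalized counts, and just missed the threshold (log2 change 0.36 ± 0.15 SE, DESeq2 adjusted p = 0.0535, per the authors' deposited table). ST3GAL6, with means of 52.7, 67.1 and 85.0, was not called as deposited (log2 change -0.46, DESeq2 adjusted p = 0.069, per the authors' deposited table) but was lower with the groups scaled to the same total (adjusted p = 0.034).

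None of the 5 tested ST6GALNAC genes, which add α2,6-linked sialic acid to GalNAc, was called by DESeq2 per the authors' deposited table. Of all genes tested, 15.8% were called higher and 11.5% lower, so 0 of 5 is not read as a result of this step. ST6GALNAC6 had authors' means of 448 (shNPTX1_3), 431 (shNPTX1_4) and 412 (shCTRL) normalized counts, with a log2 fold change of 0.09 (standard error 0.08, DESeq2 adjusted p = 0.392 per the authors' deposited table). ST6GALNAC2 had 263, 242 and 288 normalized counts as authors' means (log2 change -0.19, DESeq2 adjusted p = 0.203, per the authors' deposited table), and ST6GALNAC4, which sialylates the inner GalNAc of sialyl core 1, had 201, 151 and 137 (log2 fold change 0.32, DESeq2 adjusted p = 0.133). Of these 5 genes, 1 passed at an unadjusted p under 0.05 per the authors' deposited table: ST6GALNAC3, with 16.7, 12.1 and 24.0 normalized counts and an unadjusted p of 0.0169. It was lower with the groups scaled to the same total (adjusted p = 0.0374). ST6GALNAC1, the sialyl-Tn synthase, was near the detection limit in all groups, with authors' means of 0.634 (shNPTX1_3), 1.29 (shNPTX1_4) and 3.25 (shCTRL) normalized counts (DESeq2 adjusted p = 0.145, per the authors' deposited table).

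Set side by side, both hairpins gave ratios to the same control libraries, which they share. Among the 36 members with a mean of at least 2 CPM (38.6 normalized counts; CPM rescales normalized counts to a common library total) and no group at 0, 3 were at least 2-fold higher with shNPTX1_3 (8.33%, beside 2.95% of 14131 genes): MUC5B, GALNT5 and GALNT18. With shNPTX1_4 the count was 4 (11.1%, beside 1.47% of genes), with B3GNT7 in addition. None of the 36 was at least 2-fold lower with shNPTX1_3 (beside 1.51% of genes), and ST3GAL5 was with shNPTX1_4 (2.78%, beside 1.24%). These counts have no test. The minimum is on the mean over all libraries, of which 7 were knockdown, so it also shapes them: MUC5B and GALNT5 lay below it in shCTRL and passed through the hairpin groups, while GALNT14, low with both hairpins, did not pass. At a minimum of 1 CPM, 1 member was at least 2-fold lower with shNPTX1_3 and 3 were with shNPTX1_4, so nothing is read from these shares. The log2 ratio to control, with a pseudocount of 1, was 2.73 for GALNT5 with shNPTX1_3 and 2.61 with shNPTX1_4. For GALNT18 it was 2.09 and 1.88, for C1GALT1C1 0.73 and 0.77, and for B3GNT7 0.80 and 1.21. For GALNT14, which lies under 2 CPM, it was -1.56 and -2.09.

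Among these 36 members, 3 mucins differed most between the hairpin groups, in a comparison added after the data were seen. MUC5B, MUC16 and MUC6 were each at least 2-fold higher with shNPTX1_3 than with shNPTX1_4 (3 of 36 members, 8.33%, beside 1.82% of genes), with log2 ratios between the hairpin groups of 1.23, 1.07 and 1.11. None of the 36 was at least 2-fold lower with shNPTX1_3 than with shNPTX1_4 (beside 0.863% of genes). Of these 3, only MUC5B was above control with both hairpins, at log2 ratios of 3.21 and 1.97. MUC16 had log2 ratios to control of 0.53 with shNPTX1_3 and -0.54 with shNPTX1_4, and MUC6 had 0.12 and -0.99. The other mucins at 2 CPM or more, MUC1, MUC12 and MUC20, had log2 ratios between the hairpin groups of 0.43, 0.38 and -0.20. Below the minimum, the enzymes GCNT4 and GALNT9 differed more than any mucin, with 1.85 and 1.72. At a minimum of 1 CPM the count was 4, so no trait of mucins is read from it. A single library could set a group mean, and the difference between the hairpins was not tested.

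**Figure D4:**
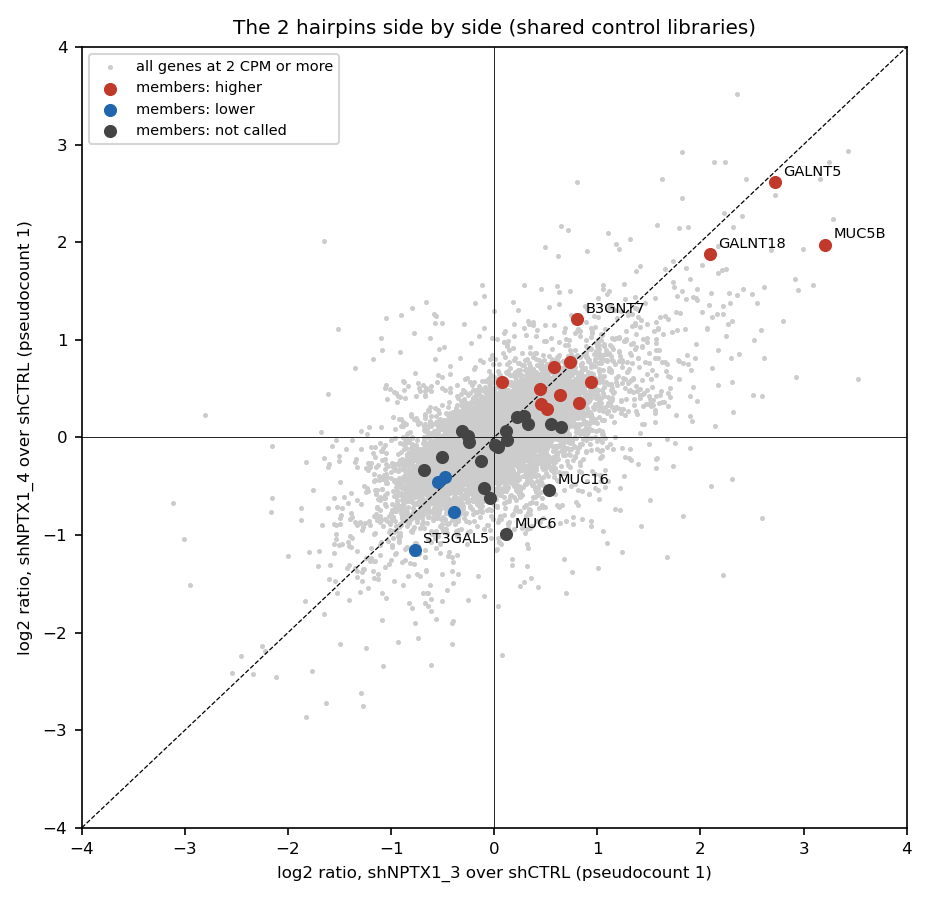
Log2 ratio to shCTRL of shNPTX1_3 (horizontal) and shNPTX1_4 (vertical), with a pseudocount of 1, for 36 members over 14125 genes at 2 CPM or more in grey (6 genes lie outside the axes). The dashed line marks equal ratios; GALNT5 and GALNT18 lie close to it, and MUC5B, MUC16 and MUC6 lie below it. Both axes share the control libraries, so the slope of the cloud is no result.

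Several genes that supply the sugars rose, most of them modestly. Of 16 genes for nucleotide sugar synthesis and Golgi transport, DESeq2 called 9 higher (56.2%, beside 15.8% of all genes) and 0 lower (beside 11.5%; also 0 lower at an unadjusted p under 0.05; median log2 fold change 0.21 per the authors' deposited table, beside -0.01 over all genes), and 6 of them rose with the groups scaled to the same total. Most had a standard error below the median of 0.148 over all genes, so small changes were easier to call. UGP2 and SLC35A3, for example, were called at log2 changes of 0.18 and 0.22. GFPT2, a rate-limiting enzyme of the hexosamine pathway that leads to UDP-N-acetylglucosamine, rose most, with authors' means of 1343 normalized counts with shNPTX1_3 and 717 with shNPTX1_4, against 261 in shCTRL. It rose 3.77-fold per the authors' deposited table (log2 change 1.91 ± 0.24 SE, DESeq2 adjusted p = 1.19e-13). GFPT1 had more counts, with authors' means of 4150 (shNPTX1_3), 4278 (shNPTX1_4) and 3832 (shCTRL) normalized counts. Its change was small (log2 change 0.14 ± 0.05 SE, DESeq2 adjusted p = 0.0359, per the authors' deposited table). That call was lost under both other scalings (recomputed Wald adjusted p = 0.299 with equal totals and 0.0844 with the median set to 0). The UDP-galactose transporter SLC35A2 rose by 0.55 (DESeq2 adjusted p = 2.9e-05) and PGM3 of the hexosamine pathway by 0.36 (DESeq2 adjusted p = 0.0033), both on the log2 scale of the authors' deposited table. Of 24 other extension, fucosylation and sulfation enzymes, 20 had an adjusted p, 2 rose (10%) and 1 fell (5.0%), both under the shares of 15.8% and 11.5% over all genes. B4GALNT3 rose by 0.70, B4GALT4 rose by 0.38 and the H antigen fucosyltransferase FUT1 fell by 0.41 (log2) per the authors' deposited table; their DESeq2 adjusted p was 0.0112, 1.51e-04 and 0.00549 in that order.

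Many partners of mucus secretion rose beside the keratins, whose part in this was not tested. Of 16 genes, 14 had an adjusted p, and DESeq2 called 9 higher (64.3%, beside 15.8% of all genes) and 0 lower (beside 11.5%; also 0 lower at an unadjusted p under 0.05), with a median log2 fold change of 0.88 per the authors' deposited table. AGR2, the endoplasmic reticulum disulfide isomerase needed for folding of gel-forming mucins in mouse intestine, had authors' means of 4661 normalized counts with shNPTX1_3 and 9426 with shNPTX1_4, against 1505 in shCTRL (log2 change 2.29 ± 0.24 SE, DESeq2 adjusted p = 9.24e-20, per the authors' deposited table). The trefoil peptide TFF3, secreted together with mucins, had 42.0 and 39.0 normalized counts with shNPTX1_3 and shNPTX1_4, against 5.02 in shCTRL, as authors' means. It rose 7.47-fold per the authors' deposited table (DESeq2 adjusted p = 2.43e-14). CAPN8, a calpain of gastric surface mucous cells, had authors' means of 7.76 (shNPTX1_3), 14.1 (shNPTX1_4) and 1.29 (shCTRL) normalized counts (log2 change 3.63 ± 0.76 SE, DESeq2 adjusted p = 3.14e-05, per the authors' deposited table), and AGR3, a relative of AGR2, had 6.29, 2.74 and 0.633 (DESeq2 adjusted p = 0.0257). SPDEF, the goblet cell transcription factor, was far higher with the first hairpin, with authors' means of 47.5 normalized counts with shNPTX1_3, 8.17 with shNPTX1_4 and 4.52 in shCTRL (DESeq2 adjusted p = 0.00164, per the authors' deposited table). SPDEF and TFF3 are also on the goblet marker list above. The call of FCGBP, the mucus protein of intestinal goblet cells (log2 change 0.39, DESeq2 adjusted p = 0.0457, per the authors' deposited table), was lost under both other scalings (adjusted p = 0.104 and 0.0615).

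**Figure D5:**
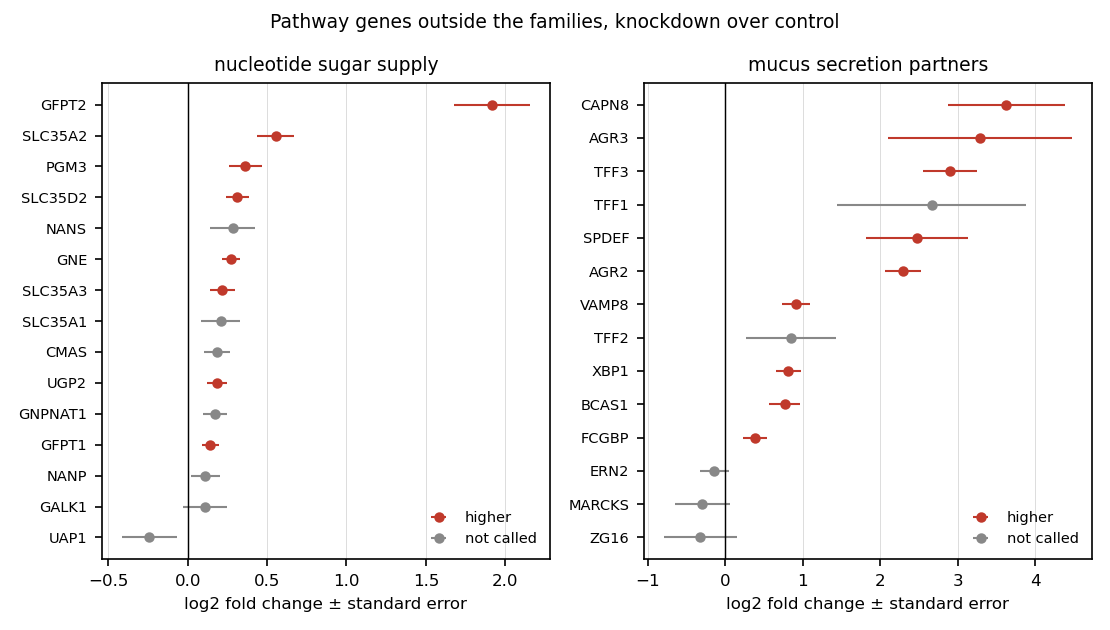
Log2 fold change, knockdown over control, with the standard error as bars, for 15 of the nucleotide sugar supply genes (left) and 14 tested partners of mucus secretion (right). Red points are called higher at an adjusted p under 0.05 and grey points are not called; 8 of the genes drawn on the left and 9 of those on the right rose and none fell, with GFPT2 set apart from the other supply genes and with different horizontal scales in the panels.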

How the data were processed

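The deposited table gives, per the file headers, group means and an overall mean, then DESeq2's fold change, error, statistic and p columns. The means are a signal made by the authors: counts divided by size factors and averaged over 3, 4 and 4 libraries. The log2 fold change is the authors' deposited value for 7 knockdown over 4 control libraries; the Wald statistic is a deposited score, and the p-value is the authors' DESeq2 value. STAR 2.7.6a, featureCounts 2.0.0, MultiQC 1.9, DESeq2 1.24, hg19 and mm39 are listed in the submitters' processing notes, without roles. The annotation, the strand setting and any removal of mouse host reads were not given in the sources used here.

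Of 23434 rows, 107 without a usable gene name (0.387% of normalized counts) were left out. Calls used the deposited adjusted p under 0.05 over all genes. Recomputing the Benjamini-Hochberg adjustment gave the deposited values within 1% in every row. The planned edgeR test of counts could not be run on group means. Hairpin ratios used a pseudocount of 1 and a minimum of 2 CPM. Scaled alternatives shifted every log2 fold change by 0.0661 (equal group totals) or 0.0224 (median of genes set to 0) and recomputed the Wald p, with code tested on simulated data (Python 3.11.15, scipy 1.17.1). Levels per kilobase used the exonic length of GENCODE release 29 basic models, for 57 members; the MUC2 model there was under 1 kilobase and was not used. Of the members, 41 overlap another gene there.

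Named members were all those called, all at 2 CPM or more among mucins and the core, branching and extension enzymes, and the 3 highest of each other step; others named were chosen after their values were seen. Members, lists and tests were chosen with earlier results of these data known. A single gene's result of the nucleotide sugar list is not reported here.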

Additional observations from a re-analysis of the deposited data

How the results depend on the processing

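Called members numbered 12 to 13 higher in all 6 alternatives. Lower members numbered 3 at an adjusted p under 0.01, 4 with a minimum of 2 CPM or adjustment over every row with a p, and 7 with groups scaled to the same total, against 5 as deposited; the stricter threshold dropped MUC12 and GCNT1. Scaling turned the sign of MUC16 (-0.0502 with equal totals and -0.00651 with the median set to 0) and of C1GALT1 (-0.0268 with equal totals), neither of them called. With hairpins weighted equally, 31 of 31 named members moved by less than their standard error. With shNPTX1_3 alone, 16 of the 31 moved by more than that, and with shNPTX1_4 alone 9 did. MUC5B, GALNT1, GALNT2, GALNT10 and B3GNT5 were among them with either hairpin. That standard error belongs to the pooled comparison, and the error of a ratio for 1 hairpin is not known. These moves therefore cannot be told apart from the spread between libraries. Counts of members at least 2-fold apart were small and moved easily. For shNPTX1_3, 5 were higher without a minimum and 9 at 1.5-fold, and 1 was lower at 1 CPM, 2 without a minimum and 2 at 1.5-fold. For shNPTX1_4, 2 were lower with a pseudocount of 0 or either other scaling, 3 at 1 CPM or without a minimum, and 4 at 1.5-fold. Without a minimum, 5 were higher with shNPTX1_3 than with shNPTX1_4, a comparison added with its settings after the data were seen, as were the rescaled counts of the outside lists. The median log2 fold change of secreted mucins was 0.12 with shNPTX1_3 alone and 1.12 at 2 CPM or more, against -0.45 over 3 members; that of the branching enzymes was 0.0347 with shNPTX1_3 alone, and that of the ST6GALNAC genes 0.0919 at 2 CPM or more. The cause of these shifts was not tested, except that the minimum leaves fewer members.

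No paired analysis was possible because the file holds group means only, and for the same reason leaving out each replicate in turn was not run. Members near 0 had standard errors up to 0.924 among those tested, and their changes were not detectable at this depth.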

Other observations

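Genes listed as mucin-like under other symbols, not all of which encode a mucin domain, moved in both directions. Of 16 such genes, 3 were called higher and 2 lower, per the authors' deposited table (18.8% and 12.5%, beside 15.8% and 11.5% of all genes). PODXL, the sialomucin podocalyxin, had authors' means of 14061 normalized counts with shNPTX1_3 and 10299 with shNPTX1_4, against 5959 in shCTRL, and rose 1.998-fold, per the authors' deposited table (log2 change 0.999 ± 0.14 SE, DESeq2 adjusted p = 1.5e-11). Its relative PODXL2 rose by 0.48 and the sialomucin CD164 by 0.33 on the log2 scale (DESeq2 adjusted p = 0.0135 and 0.00142). PRG4, the joint lubricant lubricin, had authors' means of 34.8 and 28.6 normalized counts with the hairpins, against 73.4 in shCTRL (log2 fold change -1.29, DESeq2 adjusted p = 0.00322), and the adhesion protein MCAM fell by 0.52 (DESeq2 adjusted p = 0.0104), both in the authors' deposited table. SPN was not called as deposited (log2 change -0.32, DESeq2 adjusted p = 0.0501). It was lower under both other scalings (recomputed Wald adjusted p = 0.0153 with equal totals and 0.0345 with the median set to 0). Of the 9 relatives of the families that the symbol rule does not reach, 7 had a row and 4 an adjusted p. PARM1, a mucin-like membrane protein, rose: 19.1 and 9.54 normalized counts (authors' means) with shNPTX1_3 and shNPTX1_4, against 4.04 in shCTRL (log2 fold change 1.85, standard error 0.50, DESeq2 adjusted p = 0.00201 in the authors' deposited table).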
